A study of Mus musculus with 60 samples.

Results

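The genes described here are 36 genes of mitosis, followed in the whole colon of mice across the day and in arthritis. They were taken by symbol from a gene count table of 27179 genes in 60 libraries, and a gene was a member if it drives entry into mitosis, builds the spindle or kinetochore, separates the chromosomes, divides the cell or marks dividing cells. All 36 were found, and all 36 were among the 18057 genes that passed the filter on low counts. Counts of these genes in single libraries lay between 24 and 9424.

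RNA was sequenced from a 5 mm piece of mid-colon of male DBA/1 mice. Arthritic mice carried collagen-induced arthritis (CIA), a model of inflammatory joint disease in which bovine type II collagen in complete Freund's adjuvant is injected into the skin and a collagen boost follows on day 21. They were 9 to 10 weeks old at the first injection, and no age is given for the naïve mice in the sources used here. Their colons were taken 7 days after symptoms appeared, and naïve mice that shared their cages were taken at matched times. Tissue was collected at zeitgeber time (ZT) 0, 4, 8, 12, 16 and 20, where ZT0 is lights on and ZT12 lights off, from 5 mice per treatment and time, which gives 12 groups and 30 mice per treatment. Each library is 1 mouse. In whole tissue, fewer dividing cells and less of these transcripts per dividing cell cannot be told apart.

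Mitosis is driven by cyclin-dependent kinase Cdk1 with its cyclins. Transcription of the genes needed for it is held down by the DREAM complex in resting cells and raised late in the cell cycle, after DNA has been copied, by the MYB complex and FoxM1. These act at a promoter element called the cell cycle homology region (CHR), and many of the same promoters hold CCAAT boxes, which the activator NF-Y binds. Cdk1 activity is protected by the Greatwall kinase Mastl, which turns Ensa into an inhibitor of the phosphatase PP2A-B55. Anaphase begins when the anaphase promoting complex with its activator Cdc20 marks cyclin B and securin for destruction. In the colon, dividing cells lie mainly in the lower part of the crypts, from where their progeny move up to renew the epithelium, and division in the gut follows a daily cycle.

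Promoters are shown for 6 members whose transcripts moved together in the colon, from the start of anaphase, the checkpoint, the spindle midzone, the kinetochore and the proliferation marker. They run from 250 bases before to 50 bases after the transcript start in RefSeq on GRCm38.p6, with Cdc20 at chr4:118437294-118437593 (reverse strand), Bub1 at chr2:127831810-127832109 (reverse strand), Kif23 at chr9:61946750-61947049 (reverse strand), Prc1 at chr7:80294201-80294500 (forward strand), Cenpf at chr1:189688037-189688336 (reverse strand) and Mki67 at chr7:135716330-135716629 (reverse strand). Capitals mark the CHR and CCAAT letters found by the search described after them. All 6 hold both elements, which 20 of the 30 members with a promoter given did. Other members described in full also correlated with Mki67 and are not shown. Of these, Plk1, Ect2 and Ube2c hold both elements, Mastl holds no CHR, Anln no CCAAT box and Birc5 neither. The 6 shown therefore do not stand for all members that moved with Mki67.
Cdc20: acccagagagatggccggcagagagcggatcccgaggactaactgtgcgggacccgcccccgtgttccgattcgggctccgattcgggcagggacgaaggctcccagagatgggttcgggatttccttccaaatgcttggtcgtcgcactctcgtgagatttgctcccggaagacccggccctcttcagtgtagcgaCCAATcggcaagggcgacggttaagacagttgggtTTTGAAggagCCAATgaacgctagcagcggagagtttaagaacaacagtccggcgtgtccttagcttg
Bub1: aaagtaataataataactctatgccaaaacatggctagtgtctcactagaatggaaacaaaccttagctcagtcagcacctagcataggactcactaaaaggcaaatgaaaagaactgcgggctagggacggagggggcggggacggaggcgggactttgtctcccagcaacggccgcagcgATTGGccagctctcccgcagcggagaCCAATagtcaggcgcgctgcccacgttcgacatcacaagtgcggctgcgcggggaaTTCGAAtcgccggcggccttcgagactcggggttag
Kif23: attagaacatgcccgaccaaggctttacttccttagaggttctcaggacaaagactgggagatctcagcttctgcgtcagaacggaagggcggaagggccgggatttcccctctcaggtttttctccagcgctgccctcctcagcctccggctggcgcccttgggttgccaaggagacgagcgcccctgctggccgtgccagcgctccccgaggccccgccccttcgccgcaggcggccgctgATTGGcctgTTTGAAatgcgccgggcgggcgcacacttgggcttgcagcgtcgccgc
Prc1: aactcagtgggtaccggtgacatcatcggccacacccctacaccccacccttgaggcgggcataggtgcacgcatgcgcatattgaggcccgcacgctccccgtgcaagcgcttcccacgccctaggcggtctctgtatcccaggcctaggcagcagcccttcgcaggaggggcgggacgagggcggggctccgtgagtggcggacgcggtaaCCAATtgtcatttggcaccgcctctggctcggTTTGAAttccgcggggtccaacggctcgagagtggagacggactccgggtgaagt
Cenpf: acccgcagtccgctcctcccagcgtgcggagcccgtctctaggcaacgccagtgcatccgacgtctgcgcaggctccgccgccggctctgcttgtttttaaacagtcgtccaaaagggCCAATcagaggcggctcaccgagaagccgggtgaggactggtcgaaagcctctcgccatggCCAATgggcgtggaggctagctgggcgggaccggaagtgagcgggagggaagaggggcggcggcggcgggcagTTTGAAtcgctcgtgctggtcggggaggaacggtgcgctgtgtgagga
Mki67: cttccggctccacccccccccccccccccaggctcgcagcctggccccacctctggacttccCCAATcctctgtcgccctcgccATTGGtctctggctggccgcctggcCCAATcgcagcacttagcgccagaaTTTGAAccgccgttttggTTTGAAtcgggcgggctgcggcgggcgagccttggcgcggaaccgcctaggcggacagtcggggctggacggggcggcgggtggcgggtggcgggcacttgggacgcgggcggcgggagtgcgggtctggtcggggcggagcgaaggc

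The search read both strands for the CHR as TTTGAA or TTCGAA, for the CCAAT box as CCAAT, and for the E-box of the circadian clock as CACGTG. The RefSeq table held promoters for 30 of the 36 members, and none was given there for Ccna2, Foxm1, Aurkb, Incenp, Tpx2 and Kif20a. For Prc1 and Ect2, with 2 entries each, the first was read. Of these 30, 23 (76.7%) held a CHR, against 14.4% of the 13406 promoters of genes tested. A CCAAT box was in 24 (80%) of the members' promoters against 38%, and both elements were in 20 (66.7%) against 5.93%. The E-box was in 3 of 30 (10%), those of Ttk, Anln and Espl1, against 9.35% of all. In Prc1 the CHR began 5 bases before the start, in Cdc20 18 bases before it, and in Kif23 and Cenpf at the 3rd base of the transcript. The Ensa window held 3 CCAAT boxes and no CHR, and that of Birc5 held none of these letters. These matches are descriptions of letters, and no binding was measured.

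The libraries held 25840240 to 61425974 counts each. Markers of colon epithelium were all present, with 20 of 20 tested and a summed level of 25596 to 58383 CPM, which are counts scaled to the size of each library. Of 20 smooth muscle markers, 20 were higher in CIA mice, with a median log2 difference of 0.66, and their summed level was 34508 ± 9699 CPM (SD, n = 30) in CIA against 21410 ± 6966 CPM in naïve mice. Of the enteric neuron markers 12 of 12 were higher in CIA, of macrophage markers 9 of 10 were lower, of T cell markers 6 of 10 were lower, and of B cell markers 0 of 14 passed the test. Of the epithelial markers 4 of 20 were lower, a share near the 20.4% of all genes called lower, and of crypt stem cell markers 6 of 11 were lower and 1 was higher. The treatment difference of the mitosis genes is given below with and without the muscle, B cell and epithelial scores.

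The mitosis genes exhibited a strong daily rhythm in both treatments. A 24 h cosine curve passed the test (limma, adjusted p below 0.05) in naïve mice for 34 of 36 members, against 36.9% of all genes tested, and in CIA mice for 35 of 36, against 29.7%. Levels were highest around lights on and lowest around the start of the night. In naïve mice the highest group mean fell at ZT4 for 21 and at ZT0 for 14 of the 35 members other than Ensa, and the lowest at ZT12 for 19 and at ZT16 for 16. In CIA mice the highest mean fell at ZT0 for 23 and at ZT4 for 12, and the lowest at ZT12 for 26 and at ZT16 for 9.

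**Figure D1:**
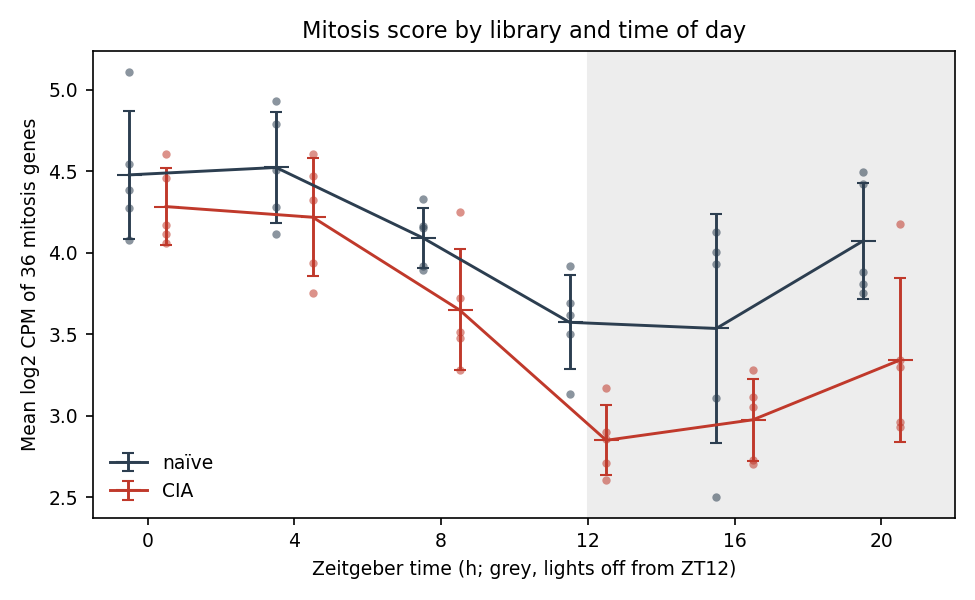
The mean log2 CPM of the 36 mitosis genes in each of 60 libraries (points) is plotted against zeitgeber time in hours, with the group mean and SD (n = 5) as bars joined by lines, naïve in dark blue and CIA in red, offset sideways for clarity and with the dark phase in grey. Naïve means ran from 4.52 at ZT4 to 3.54 at ZT16 and CIA means from 4.28 at ZT0 to 2.85 at ZT12.

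Mki67, the proliferation marker Ki-67, shows the size of this cycle in single mice. Its 5 naïve mice at ZT4 held 92.3, 98.6, 118, 140 and 163 CPM, and those at ZT12 held 53.8, 60.7, 69.4, 70.0 and 95.6 CPM. The 5 CIA mice at ZT4 held 65.3, 88.3, 98.2, 120 and 124 CPM, and those at ZT12 held 34.4, 34.9, 36.4, 36.7 and 56.9 CPM. In CIA mice all 5 values at ZT4 were above all 5 at ZT12, while in naïve mice the groups overlapped by 1 mouse on each side. The fitted curve of Mki67 peaked at ZT2.15 ± 0.732 (SE) in naïve and ZT2.48 ± 0.483 in CIA mice, with a peak 2.02-fold and 2.90-fold above the trough (adjusted p = 2.07e-04 and 1.01e-07, limma).

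Among the kinases and cyclins of mitotic entry, Cdk1 peaked at ZT1.06 ± 0.648 in naïve mice and Foxm1, the activator of mitotic transcription, at ZT0.809 ± 0.665. The cyclins came in order, with Ccna2 (cyclin A2, which acts from S phase to early mitosis) at ZT1.91 ± 0.734, Ccnb1 (cyclin B1) at ZT3.11 ± 0.770 and Ccnb2 (cyclin B2) at ZT4.07 ± 0.622. Neighbours in this order lay within their errors, and the SE of Cdk1 and Ccnb2 did not meet. Peak-to-trough differences of Cdk1, Ccna2, Ccnb1 and Ccnb2 were 2.28-fold, 2.23-fold, 2.34-fold and 2.54-fold in naïve mice.

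All 6 members of the Aurora kinase and chromosomal passenger group were rhythmic in both treatments. Aurkb (Aurora B), the kinase of the passenger complex, and Incenp, its scaffold, peaked early in naïve mice, at ZT0.566 ± 0.731 and ZT0.620 ± 0.575. Birc5 (survivin), another subunit, peaked at ZT2.68 ± 0.643, and Aurka (Aurora A), the spindle pole kinase, at ZT2.73 ± 0.669. Incenp had the smallest peak-to-trough difference of the 34 members rhythmic in both treatments in CIA mice, at 1.96-fold, and 1.92-fold in naïve mice.

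The 8 kinetochore and checkpoint genes spanned the whole order of peak times. Bub1, a checkpoint kinase, was the earliest of the 34 in naïve mice, at ZT23.8 ± 0.855, and Cenpa, the centromeric histone, the latest, at ZT4.24 ± 0.543. Cenpf, a kinetochore protein of late G2 and mitosis, peaked at ZT3.94 ± 0.654, and Ndc80, the microtubule-binding subunit of the outer kinetochore, at ZT2.06 ± 0.590. Ndc80 had the greatest naïve peak-to-trough difference of the 36, at 2.92-fold, and the checkpoint kinase Ttk the greatest in CIA mice, at 4.28-fold. The separation of Bub1 and Cenpa, picked from naïve mice, was checked in the 30 CIA mice, which had no part in the choice. There the log2 ratio of Cenpa to Bub1 was 0.71 ± 0.28 (SD, n = 5) at ZT0, 1.31 ± 0.28 at ZT4, 1.5 ± 0.35 at ZT8, 1.38 ± 0.57 at ZT12, 1.10 ± 0.34 at ZT16 and 0.61 ± 0.25 at ZT20. The ratio cycled with an amplitude of 0.47 on the log2 scale and a peak at ZT9.09 (permutation test of the amplitude over 30 mice, p = 0.00015). The 2 fitted peaks lay closer in CIA than in naïve mice, with Bub1 at ZT1.79 ± 0.545 and Cenpa at ZT3.86 ± 0.481. In CIA mice Incenp was the earliest of the 34, at ZT1.23, and Cenpf the latest, at ZT4.00. Whether the gap between Bub1 and Cenpa differed between treatments was not tested.

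The 7 spindle motor and midzone genes, the 2 of the cytokinesis ring and the 3 of anaphase were rhythmic in both treatments. Kif23, a motor of the central spindle, peaked at ZT1.28 ± 0.783 in naïve mice, and Prc1, which bundles the midzone microtubules, at ZT1.69 ± 0.598. Ect2, which switches on the contractile ring, peaked at ZT0.557 ± 0.802, and Anln (anillin), its scaffold, at ZT1.38 ± 0.923. Kif2c, which takes microtubules apart at the kinetochore, peaked at ZT3.37 ± 0.573, and Cdc20 and Ube2c, which start and feed the anaphase promoting complex, at ZT3.50 ± 0.737 and ZT3.19 ± 0.695. Espl1 (separase), the protease that parts the sister chromatids, peaked at ZT1.78 ± 0.591.

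**Figure D2:**
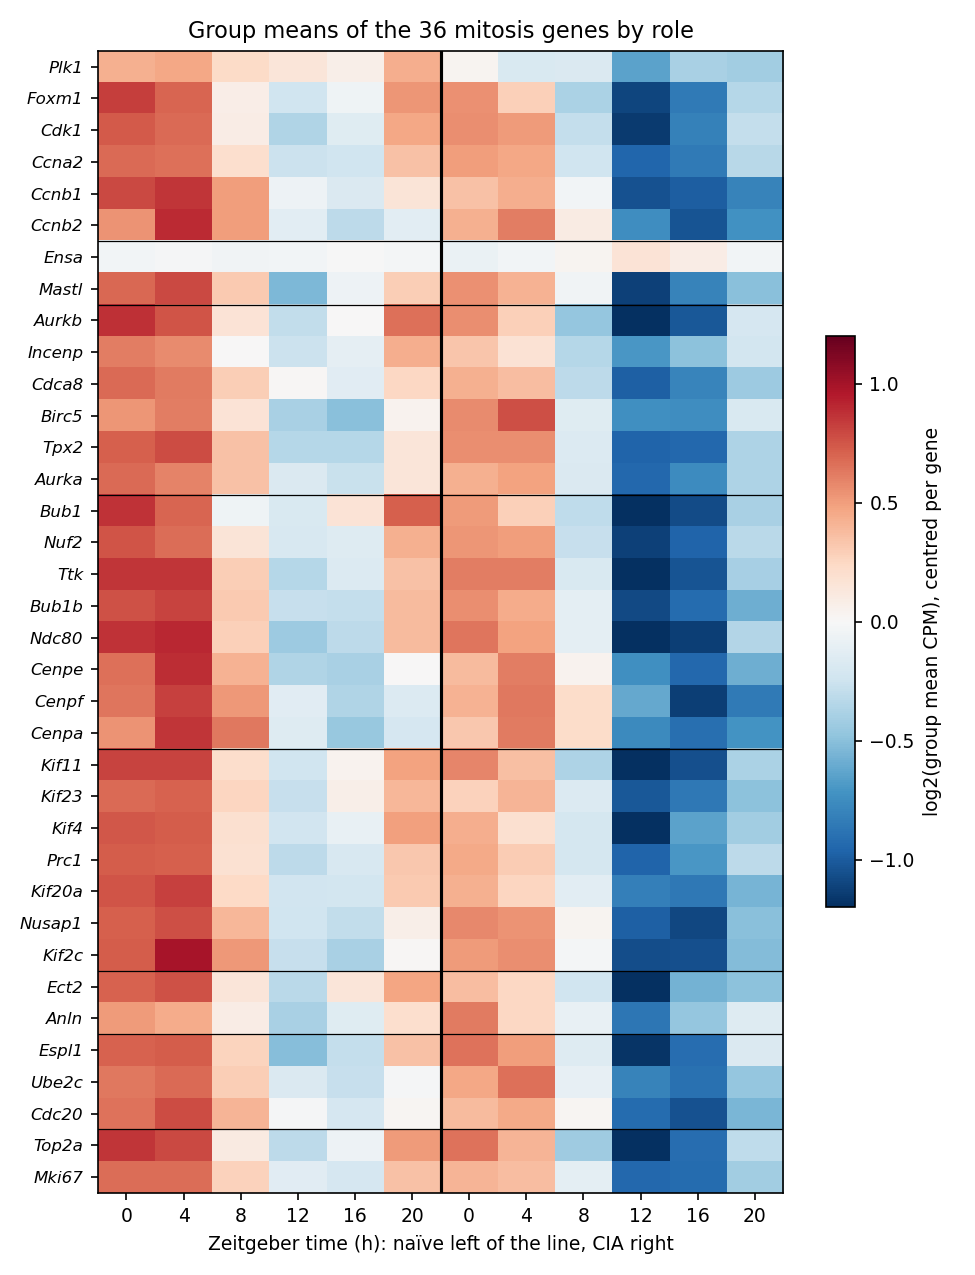
Each row is 1 of the 36 genes, grouped by role between the thin lines, and each column is 1 of the 12 groups by zeitgeber time in hours, naïve left and CIA right of the thick line. Colour gives the log2 of the group mean CPM (n = 5) minus the gene's mean over groups. Ensa is near white throughout, and the CIA columns at ZT12 and ZT16 are the bluest.

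Only 2 members, Plk1 and Ensa, did not pass in naïve mice. Plk1, a kinase of mitotic entry and of the spindle, reached an amplitude (the height of the fitted peak over its mean) of 0.19 ± 0.079 (SE, log2) in naïve and 0.23 ± 0.079 in CIA mice, with adjusted p = 0.127 and 0.0638 (limma). Ensa had a naïve amplitude of 0.0059 ± 0.022 (adjusted p = 0.975) and a CIA amplitude of 0.11 ± 0.022 (adjusted p = 4.43e-04, limma), with its CIA peak at ZT12.4 ± 0.765. Ensa was thus highest in CIA mice when the other members were lowest. The difference between its peak and its trough there was 1.17-fold.

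The 5 CIA mice at ZT12 held 142, 163, 169, 173 and 186 CPM of Ensa, and those at ZT0 held 135, 137, 138, 141 and 153 CPM. The naïve mice at ZT12 held 136, 140, 144, 149 and 156 CPM, and those at ZT0 held 141, 144, 144, 147 and 151 CPM. The CIA groups of ZT0 and ZT12 overlapped, as did the treatments at ZT12. Ensa had one of the highest levels of the list per length of exon, at 27.8 CPM per kb over all libraries, next to Plk1 at 33.2 CPM per kb, and the range over the 36 was 0.662 to 33.2 CPM per kb.

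Sorted by the best of 5 curve models (arrhythmic, rhythmic in naïve or in CIA alone, the same in both, or different), 34 of 36 members had the same rhythm in both treatments, against 34.7% of all genes. By Akaike in place of Schwarz weights 21 had, and with 1 library left out 23 to 35. Ensa was classed as a gain of rhythm in CIA, as were 2.4% of all genes, and Bub1 had no model with a weight of 0.6 or more (its best was 0.583). Peak times of the 34 members other than Plk1 and Ensa kept their order, with Spearman's rho = 0.888 and Pearson's r = 0.889 between treatments, given as a description since these genes share their libraries. Over the 35 members other than Ensa the median peak was ZT1.91 in naïve and ZT2.22 in CIA mice.

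The fitted amplitude was greater in CIA than in naïve mice for 36 of 36 members and for 7753 of 18057 genes, but no member passed the test of a difference in rhythm. The median peak-to-trough difference of the 34 members was 2.26-fold in naïve mice, with a range of 1.84-fold to 2.92-fold. In CIA mice it was 3.21-fold, with a range of 1.96-fold to 4.28-fold. In edgeR's quasi-likelihood test of the difference in rhythm 0 of 36 members passed (lowest adjusted p = 0.731), against 0.0222% of all genes. At an unadjusted p under 0.05 there were 5 of 36 members and 1176 of 18057 genes, and limma also gave 0 passed and 5 unadjusted. These by edgeR were Ensa (unadjusted p = 0.00272), Bub1 (0.0131), Kif11 (0.0224), Ttk (0.0268) and Kif23 (0.0412). Bub1 had the greatest shift of peak, at 2.02 h later in CIA mice.

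**Figure D3:**
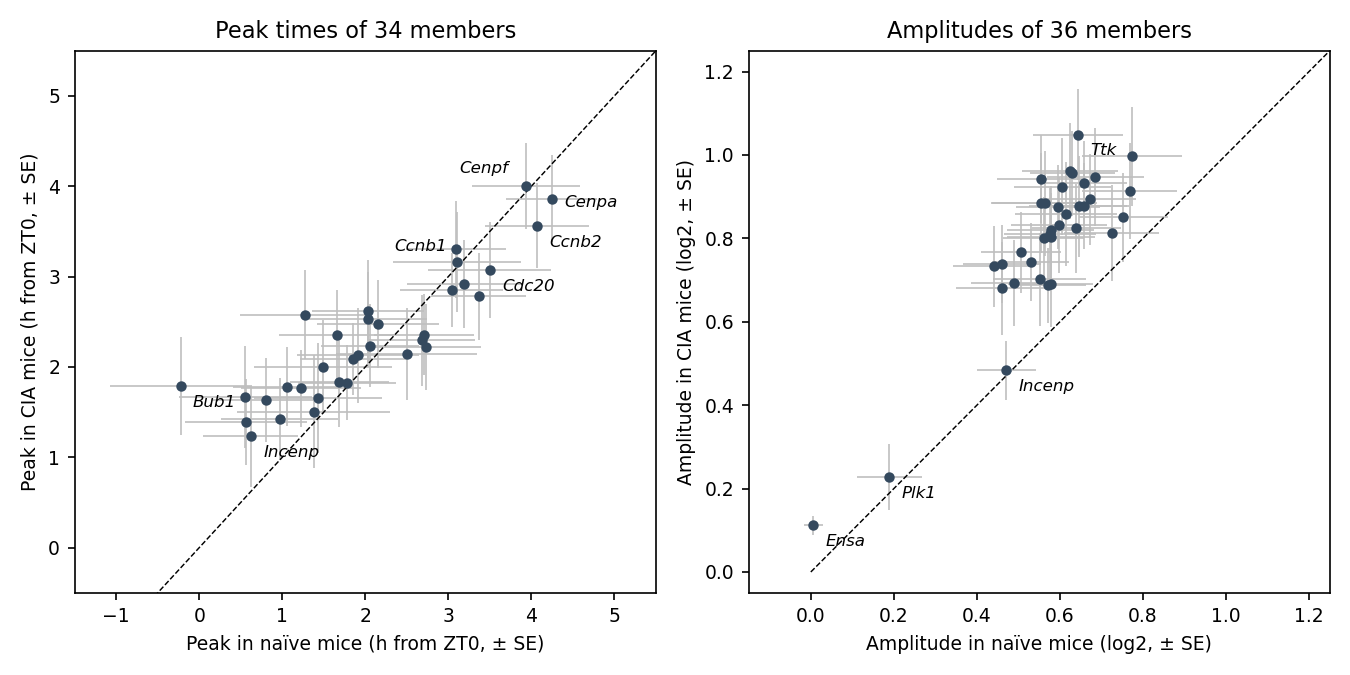
Left, peak time in CIA against naïve mice in hours from ZT0 for the 34 members rhythmic in both; right, amplitude in log2 units for all 36. Bars are SE of the fit and the dashed line marks equal values. Naïve peaks lie from ZT23.8 for Bub1 to ZT4.24 for Cenpa, and 36 of 36 amplitudes lie above the line.

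Over the whole day, mitosis genes were lower in CIA than in naïve colon. In edgeR's quasi-likelihood test over 60 libraries 25 of 36 members were lower, against 20.4% of all genes tested, and 0 were higher, against 17.6%. The remaining 11 did not pass. This fit had no term for time of day, so the daily rhythm counted as spread. Counts by role below come from this fit. With the time point as a term 33 were lower, all but Ensa, Birc5 and Anln. By DESeq2 25 were lower and 1, Ensa, was higher. The median log2 fold change of the 36 was -0.47, against -0.025 over all genes. The 25 lower members had means 1.31-fold to 1.58-fold higher in naïve mice, and for 25 of 25 the CIA mean was the lower at 6 of 6 times of day. The same libraries chose these 25, so this is a description and no further test. Members that did not pass, such as Ccnb2 and Tpx2, also had the lower CIA mean at 6 of 6 times. With a size of over 2 required on the log2 scale as well, 0 members passed.

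Of the 6 genes of mitotic entry, 5 were lower in CIA mice. Plk1 had the smallest adjusted p of the list. It ran from 38.4 through a median of 55.1 to 95.1 CPM in the 30 CIA mice, and from 55.6 through 83.2 to 159 CPM in the 30 naïve mice. The groups overlapped and their means were 58.4 ± 15.4 and 87.5 ± 20.4 CPM (SD), or a log2 difference of -0.58 ± 0.087 (SE, adjusted p = 8.66e-07). Ccnb1 fell by 0.62 and Foxm1 fell by 0.55 on the log2 scale. Ccnb2, at -0.39, did not pass (adjusted p = 0.0705). Mastl, the Greatwall kinase, ran from 1.52 through 3.21 to 8.83 CPM in CIA and from 2.08 through 4.89 to 11.6 CPM in naïve mice, and fell by 0.44 ± 0.17 on the log2 scale (adjusted p = 0.0297). Its substrate Ensa did not pass over the whole day, with 151 ± 12.2 CPM in arthritic and 146 ± 7.96 CPM in naïve animals (adjusted p = 0.136).

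In the Aurora and passenger group 4 of 6 were lower. Incenp ran from 14.3 through 20.1 to 41.8 CPM in CIA and from 17.8 through 29.0 to 54.1 CPM in naïve animals, or a log2 difference of -0.41 ± 0.11 (adjusted p = 0.00285). Aurkb fell by 0.64 and Cdca8 (borealin) fell by 0.51. Birc5, of the same complex, had nearly equal means of 28.3 ± 13.6 and 30.3 ± 12.2 CPM, or a log2 difference of -0.10 ± 0.16 (adjusted p = 0.669). Its CIA mean was the higher at ZT4, with 47.2 ± 7.30 against 42.2 ± 7.94 CPM (n = 5), and the lower at ZT12, with 16.5 ± 3.87 against 21.1 ± 7.19 CPM, and neither difference passed the test. Whether Birc5 differed from its partner subunits in its response was not tested.

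Of the 8 kinetochore and checkpoint genes, 5 were lower. Bub1 had the greatest fall of the 36. It ran from 2.10 through 4.36 to 11.2 CPM in CIA and from 2.39 through 8.48 to 20.5 CPM in naïve animals, or a log2 difference of -0.66 ± 0.18 (adjusted p = 0.00294). Bub1b, Ttk, Ndc80 and Nuf2 were the others that fell, by 0.46 to 0.50 on the log2 scale. The 3 CENP genes of this group did not pass, with log2 fold changes of -0.36 for Cenpa, -0.37 for Cenpe and -0.36 for Cenpf. Cenpf held 16.1 ± 8.84 CPM in arthritic and 20.7 ± 8.27 CPM in naïve animals (adjusted p = 0.105). With the time point as a term all 3 passed (edgeR), with adjusted p = 0.00163 for Cenpa, 0.00353 for Cenpe and 0.00216 for Cenpf.

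Of the 7 spindle motor and midzone genes 6 were lower, all but Nusap1. Kif23 ran from 4.96 through 8.72 to 19.99 CPM in CIA and from 7.74 through 15.2 to 30.8 CPM in naïve animals, or a log2 difference of -0.56 ± 0.15 (adjusted p = 0.00188). Kif11, the motor that pushes the spindle poles apart, fell by 0.60, and Kif4, a chromosome-bound motor, fell by 0.57. Prc1 held 17.2 ± 7.34 CPM in arthritic and 23.5 ± 8.67 CPM in naïve animals and fell by 0.45 ± 0.14 (adjusted p = 0.0109). In cytokinesis, Ect2 held 9.63 ± 4.22 and 14.5 ± 5.58 CPM and fell by 0.59 ± 0.15 (adjusted p = 0.00120). Anln, at 11.8 ± 4.80 and 13.4 ± 4.70 CPM, did not pass (adjusted p = 0.313).

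Of the 3 anaphase genes Cdc20 was lower, with 15.8 ± 7.46 CPM in CIA and 22.04 ± 8.38 CPM in naïve animals, or a log2 difference of -0.48 ± 0.16 (adjusted p = 0.0172). Ube2c, at 22.7 ± 11.7 and 28.1 ± 10.2 CPM, and Espl1, at -0.34 on the log2 scale, did not pass. Both genes of chromosome structure and proliferation were lower, with Top2a (topoisomerase II alpha) at -0.53 and Mki67 at -0.48. Mki67 ran from 31.6 through 57.1 to 124 CPM in CIA and from 28.1 through 91.2 to 198 CPM in naïve animals (adjusted p = 0.00760).

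**Figure D4:**
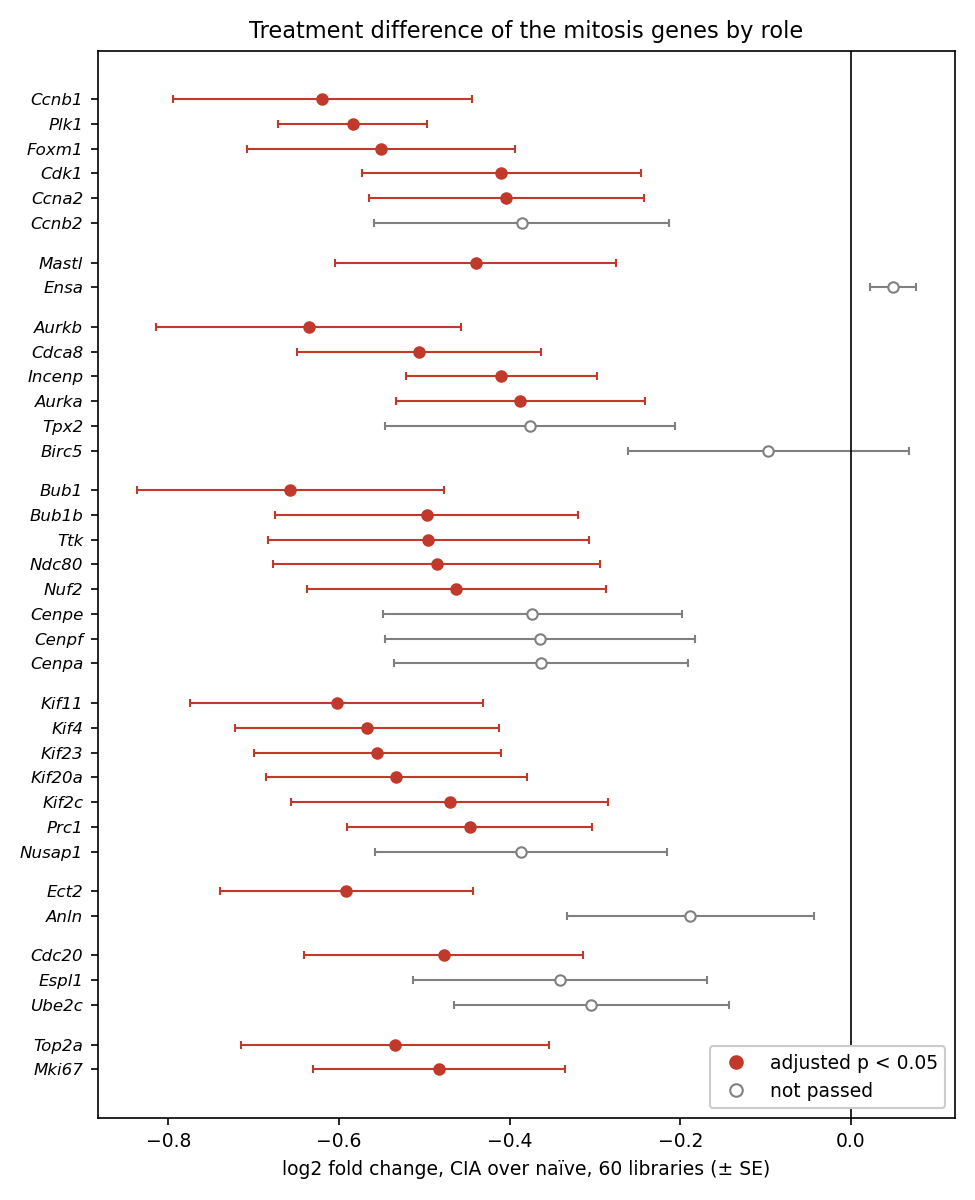
The log2 fold change of CIA over naïve mice in 60 libraries is drawn for 36 genes by role, with the SE as bars; filled red points passed the quasi-likelihood test and open grey points did not. Of the 36 points 35 lie left of 0, from -0.66 for Bub1, and Ensa lies right of it.

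Single libraries bore on some of these calls. With each of the 60 libraries left out in turn, the number of lower members lay between 17 (without naïve ZT0 replicate 3) and 29 (without CIA ZT4 replicate 1). Of the 25 calls 17 passed in all 60 runs, among them Plk1, Bub1, Incenp, Kif23, Prc1, Ect2, Cdc20 and Mki67. The other 8 were lost in some: Aurka and Nuf2 without naïve ZT0 replicate 3, Mastl without that library or naïve ZT4 replicate 5, and Ttk without it or naïve ZT4 replicate 1. Ndc80, Kif2c, Ccna2 and Cdk1, with adjusted p from 0.0387 to 0.0415, passed in 44, 37, 36 and 33 of 60 runs. Ensa was called higher without naïve ZT8 replicate 5, in 1 of 60 runs.

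The treatment difference depended on which measures of the tissue piece entered the fit. With the smooth muscle score added to the fit, 1 member, Plk1, stayed lower (adjusted p = 0.0293, edgeR). Across mice, Plk1 followed its neighbour gene Ern2 (r = 0.888) more closely than Mki67 (r = 0.484), as described below. In this fit 35 of 36 fold changes remained negative and their median was -0.35. The share of lower calls over all genes went from 20.4% to 1.52%. With the smooth muscle score and the time point both in the fit, an alternative chosen after seeing the data, 24 of 36 were lower, against 4.39% of all genes, with a median of -0.47. With the time point alone as a term 33 were lower, against 23.4% of all genes. The B cell score gave 25 (22.2% of all genes), the epithelial score 27 (20.7%), and the smooth muscle and B cell scores together 0 (1.19%). The part of muscle content in the treatment difference cannot be told apart from treatment in these pieces, since 20 of 20 muscle markers differed between treatments.

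At single times of day, members passed the test at ZT12 and ZT20. Counts of lower members were 0 at ZT0, 0 at ZT4, 0 at ZT8, 17 at ZT12, 0 at ZT16 and 15 at ZT20. Over all genes the same test called 0.0111%, 0.642%, 0.0332%, 6.42%, 0.00554% and 6.88% at these times. Members with an unadjusted p under 0.05 numbered 1, 4, 5, 32, 31 and 27 in the same order of times, so ZT16 held nearly as many as ZT12 before adjustment. The members' median log2 fold change was -0.23 at ZT0, -0.30 at ZT4, -0.40 at ZT8, -0.77 at ZT12, -0.67 at ZT16 and -0.71 at ZT20. A treatment difference that varied with time passed for 0 of 36 members (edgeR, lowest adjusted p = 0.965, 1 member at an unadjusted p under 0.05) and for 0% of all genes. A difference between times of day was therefore not shown.

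At ZT12 all 5 CIA mice lay below all 5 naïve mice for 15 of 36 members, against 4.66% of all genes. At ZT8 this held for 1 member, Aurka, against 0.781%, and at ZT20 for 1, Plk1, against 6.87%. Bub1 at ZT12 held 2.10, 2.18, 2.71, 3.38 and 3.74 CPM in CIA mice and 3.97, 5.56, 5.57, 6.68 and 7.54 CPM in naïve mice. The 2 groups did not overlap, and its log2 fold change was -1.05 (adjusted p = 0.0306, edgeR). Ect2 at ZT12 held 4.07, 4.47, 4.98, 5.01 and 5.06 CPM in CIA mice and 7.00, 7.98, 9.32, 10.1 and 10.7 CPM in naïve mice, again with no overlap, at -0.93 (adjusted p = 0.0134, edgeR). Plk1 at ZT20 held 45.2, 46.9, 47.9, 57.2 and 68.4 CPM in CIA mice and 68.6, 84.9, 96.7, 111 and 117 CPM in naïve mice. Its groups were barely apart, with a log2 fold change of -0.85 (adjusted p = 0.00875, edgeR). Ensa was the 1 member higher at ZT12, by 0.20 on the log2 scale (adjusted p = 0.0204, edgeR), as were 2.86% of all genes. When the 10 libraries of ZT12 were fitted alone, 13 members were lower and 0 higher, so this call of Ensa was lost.

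These time point counts rested on few mice. At ZT12 the count of 17 became 5 without CIA replicate 5, 6 without naïve replicate 3, 7 without CIA replicate 1, and 11 without naïve replicate 2 or naïve replicate 5. At ZT20 the count of 15 became 32 without CIA replicate 2, the mouse with the highest mitosis score of its group at 4.18 against 2.93 to 3.34 in the others. It became 2 without naïve replicate 2, 3 without CIA replicate 3 or 5, 6 without CIA replicate 1 or naïve replicate 3, and 7 without CIA replicate 4. At ZT4 the count of 0 became 1 without CIA replicate 4 or naïve replicate 4. With the smooth muscle score added to the fit 8 were lower at ZT12 and 0 at ZT20. The share of all genes was not counted in these runs.

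Mice of the same group and time also differed from each other, and the mitosis genes rose and fell together across them. After the mean of each of the 12 groups was taken out, 34 of the 35 other members correlated positively with Mki67 across 60 mice, against 1.52% of all genes (two-sided permutation test within groups, adjusted over 18056 genes). For the 33 other than Plk1 and Ensa, r lay between 0.633 (Anln) and 0.943 (Prc1) with a median of 0.883, and rho between 0.627 and 0.939. Over all genes the median r was -0.0086, and 154 genes, these members among them, had an r of at least 0.633. The highest adjusted p of the 33 by permutation was 0.00198, and 1e-05 is the smallest unadjusted p these permutations give. Without the 2 mice farthest from the median of Mki67 the lowest r was 0.617. Within CIA mice the lowest r was 0.387 and within naïve mice 0.564. Plk1 had r = 0.484 (rho = 0.476, r = 0.455 without 2 mice, adjusted p = 0.0133 by permutation), and Ensa r = -0.142 (rho = -0.120, r = -0.038 without 2 mice, adjusted p = 0.902 by permutation). With the smooth muscle score taken out, r of the 33 lay between 0.653 and 0.944, and with the B cell score taken out between 0.660 and 0.943.

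Plk1 varied with its neighbour on chromosome 7 more than with any other gene. Among the 18057 genes tested, ranked by the same correlation of residuals, the gene most like Plk1 was Ern2, an endoplasmic reticulum stress sensor of mucus-secreting epithelium, with r = 0.888 and rho = 0.879 across 60 mice. These values chose Ern2 and are given with no test. The r was 0.871 without the 2 most distant mice, 0.859 within CIA and 0.920 within naïve mice. Of the 20 genes most like Plk1, 0 were members or genes of the mitosis and replication lists used here, and the same held for Ensa. For the other 34 members the 20 nearest held 4 to 12 members.

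**Figure D5:**
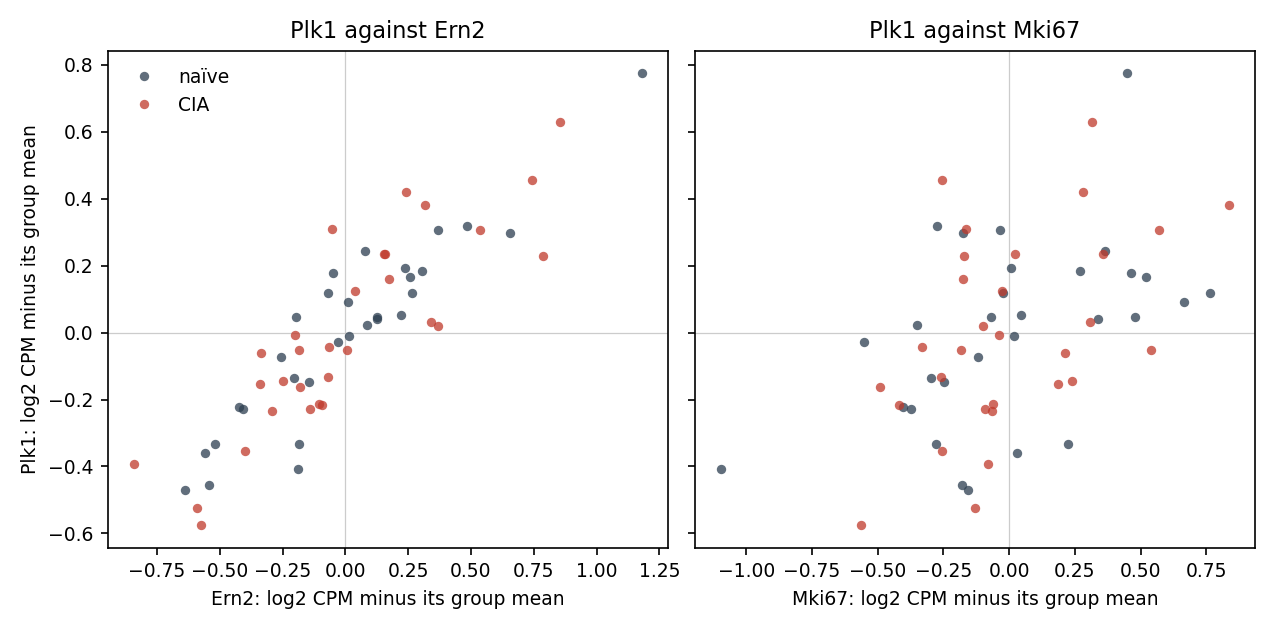
Each point is 1 of 60 mice, naïve dark blue and CIA red, with the log2 CPM of Plk1 minus its group mean on the vertical axis against that of Ern2 (left) and of Mki67 (right). Points follow a narrow line for Ern2 (r = 0.888) and a wide cloud for Mki67 (r = 0.484).

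On GRCm38.p6 Plk1 spans chromosome 7, 122159435 to 122169884, on the forward strand, and Ern2 spans 122169893 to 122186239 on the reverse strand. The genes end facing each other with 8 bases between them. The kit marks strand, but whether the counting used it is not given in the sources used here, and in counting without strand reads of facing genes that run past their ends cannot be told apart. Ern2 held 47.8 ± 15.7 CPM in CIA and 75.5 ± 25.3 CPM in naïve animals, or a log2 difference of -0.66 ± 0.11 (adjusted p = 1.02e-05, edgeR), and was not called rhythmic (adjusted p = 0.125 and 0.665, limma). The level of Ern2 was then added as a covariate, a choice made after seeing the data. Ern2 was picked as the gene most like Plk1, and the p-values of this fit take no account of that choice. Ern2 also differed between treatments, so the fit cannot tell its level apart from treatment. With Ern2 in the fit, Plk1 was rhythmic in both treatments. It then peaked at ZT4.74 ± 1.02 in naïve (adjusted p = 0.00672) and ZT3.11 ± 0.708 in CIA mice (adjusted p = 1.21e-04, limma). The members other than Ensa and Plk1 peaked between ZT23.8 and ZT4.24 in naïve mice, so the naïve peak of Plk1 came after theirs by less than its SE, and between ZT1.23 and ZT4.00 in CIA mice. Its treatment difference then fell to -0.16 ± 0.059 (adjusted p = 0.0664, edgeR). With this covariate 0 of 36 members were lower over 60 libraries, against 5.6% of all genes, and the members' median log2 fold change was -0.16 in place of -0.47. With Ern2 and the time point both in the fit 2 were lower, Plk1 and Cdca8, against 4.59% of all genes, with a median of -0.30. The part of shared reads in the level of Plk1 was not tested.

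Genes that act with or before the members were read from lists of their own. Their calls come from the fit with treatment alone, which called 20.4% of all genes lower and 17.6% higher. With the smooth muscle score the share of all genes lower was 1.52%, and these lists were not counted in that fit. The same rhythm in both treatments held for 34.7% of all genes. Of 44 DNA replication genes, which act before mitosis, 33 were lower in CIA and 0 higher, and 41 had the same rhythm in both treatments. Their median peak was ZT21.1 in naïve and ZT22.4 in CIA mice, ahead of the members' ZT1.97 and ZT2.23 among genes of that class. Pold1, a catalytic subunit of DNA polymerase delta, fell by 0.37 (adjusted p = 1.19e-04, edgeR) and Rfc4, of the clamp loader, fell by 0.43 (adjusted p = 2.05e-04, edgeR). Of 36 other kinetochore and checkpoint genes 23 were lower and 1 was higher, and 33 had the same rhythm, with a median peak of ZT0.646 in naïve mice. Cenpo fell by 0.28 and Cenpu by 0.72 on the log2 scale.

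Of 20 condensin and cohesin genes 9 were lower and 1 higher, with Ncapd3 at -0.27 and Ncapg at -0.64. Of 17 genes of the anaphase promoting complex and its partners 4 were lower, a share near the 20.4% of all genes, and 1 was higher, with Cdc16 at -0.11 and Anapc1 at -0.11. Of 11 DREAM and MYB genes 6 were lower and 2 higher, with Rbl1 at -0.36 and E2f4 at -0.20. Of 10 regulators of Cdk1 5 were lower and 1 higher, with the inhibitory kinase Pkmyt1 at -0.45 and the activating phosphatase Cdc25c at -0.62.

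Wee1, the other inhibitory kinase of Cdk1, had nearly equal levels of 20.3 and 20.4 CPM in CIA and naïve mice. It peaked at ZT14.7 ± 0.414 in CIA and ZT16.9 ± 0.495 in naïve mice and was classed as changed in rhythm. Of 7 genes of PP2A-B55 and its inhibitor, the target of the Greatwall pathway, 3 were higher and 1 lower in CIA. Arpp19, a paralog of Ensa with the same inhibitory role, rose by 0.09 ± 0.03 on the log2 scale (adjusted p = 0.0108, edgeR), with 114 CPM in arthritic and 108 CPM in naïve animals. The catalytic subunit Ppp2ca rose by 0.11 and the scaffold subunit Ppp2r1b fell by 0.23. Arpp19 was not called rhythmic in naïve (adjusted p = 0.173) or CIA mice (adjusted p = 0.189, limma).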

How the data were processed

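Mid-colon RNA of 60 mice was read by the authors as paired-end TruSeq Stranded mRNA libraries. The submitters' processing notes name bcl2fastq 2.17.1.14 for base calls, Trimmomatic 0.36 for trimming, and STAR 2.5.3 with the mm10 (GRCm38) genome for alignment. The authors deposited raw counts per Entrez gene, made with Rsubread. The annotation and strand setting of counting are not given in the sources used here. Even numbers made up 74.0% of the counts between 1 and 20 and 50.5% of high counts, so halved counts were tried as well. Groups came from sample titles. Symbols came from RefSeq (25275 identifiers) and GENCODE (18), and 1886 had no name.

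The members and lists were chosen with earlier results of these data known. The packages were edgeR 4.0.16, DESeq2 1.42.0 and limma 3.58.1 under R 4.3.3. Genes were kept by filterByExpr over 12 groups (minimum count 10, minimum total 15), with trimmed mean of M-values scaling. The comparison of treatments used the quasi-likelihood test of edgeR in its legacy form, either over 60 libraries with no term but treatment or, at single times, with 12 group means. P-values were adjusted by Benjamini-Hochberg over 18057 genes, with a threshold of 0.05. SE values are the log2 fold change divided by the square root of F. Curves of 24 h were fitted with limma to log2 CPM (prior count 2), and classes needed a Schwarz weight of at least 0.6. Cell type scores are mean log2 CPM of marker lists. Correlations used residuals from group means and 100000 permutations within groups.

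Genes described in full were, in each role, the one with the highest mean CPM and the one with the smallest adjusted p, and any whose class was not the same rhythm. Of each pathway list up to 2 genes with the smallest adjusted p are named, with Arpp19 and Wee1 added. Genes named beside these were chosen after their values were seen. The scripts were tested on simulated counts with known changes.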

Additional observations from a re-analysis of the deposited data

Results flagged for a closer look

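Values of the 14 genes described in full and of the mitosis score were searched for single mice far from the other 4 of their group (Dixon's test), and 12 of 180 groups held one. Chance alone gives about 1 in 20.

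The CIA mouse replicate 2 at ZT20 was high for 5 genes. It held 43.9 CPM of Birc5 against 16.8 to 21.3 in the other 4, 33.9 CPM of Incenp against 17.4 to 20.7, and 12.8 CPM of Ect2 against 6.01 to 7.79. It also held 32.8 CPM of Ube2c against 10.4 to 15.1 and 97.4 CPM of Mki67 against 38.8 to 53.5.

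The CIA mouse replicate 4 at ZT8 was high for 4 genes, with 28.7 CPM of Incenp against 16.2 to 19.5, 37.7 CPM of Cenpf against 12.1 to 18.3, 25.6 CPM of Prc1 against 12.1 to 15.6, and 16.7 CPM of Ect2 against 6.65 to 8.86. Without these 2 mice, an alternative chosen after seeing the data, 30 of 36 members were lower in CIA over the day in place of 25. The share of all genes lower was then 21.2%. Both are CIA mice flagged for high values, so leaving them out lowers the CIA means by construction, and the rise is no support. Leaving out naïve ZT0 replicate 3, flagged for high Mki67, gave 17.

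The naïve mouse replicate 5 at ZT4 held 11.6 CPM of Mastl against 5.30 to 6.93. Mki67 stood at 56.9 CPM in CIA replicate 4 at ZT12 against 34.4 to 36.7, and at 198 CPM in naïve replicate 3 at ZT0 against 88.2 to 117. The cause of these values was not tested.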

How the results depend on the processing

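The count of 25 lower members over 60 libraries was 1 when the smooth muscle score entered the fit (1.52% of all genes lower). It was 24 when the time point entered with that score (4.39%), an alternative chosen after seeing the data, and 33 with the time point alone (23.4%). It was 0 with the smooth muscle and B cell scores (1.19%), 0 with the Ern2 level (5.6%) and 2 with Ern2 and the time point (4.59%). It was 16 without time point ZT8 (19%), 16 without ZT12 (14.7%) and 12 without ZT20 (13.4%). With an absolute log2 fold change above 2 it was 0. It was 21 with no filter on low counts (14.7%) and 33 with limma voom (21.5%). It was 25 with relative log expression factors (18.7%), DESeq2 (19.5%) or halved counts (20.6%). DESeq2 called 1 member higher in place of 0. With the Ern2 covariate the log2 fold changes of Anln and Espl1 turned to 0.12 and 0.021, neither past the threshold. Leaving out 1 library gave 17 to 29 lower and 0 to 1 higher. At single times it gave 0 to 1 at ZT4, 5 to 17 at ZT12 and 2 to 32 at ZT20. With the smooth muscle score 8 were lower at ZT12 and 0 at ZT20, and within the 10 libraries of ZT20 alone 2 were. For these runs at single times the share of all genes was not counted. The same rhythm held for 34 members, or 21 by Akaike weights and 23 to 35 with 1 library left out. Ensa stayed a gain of rhythm under 13 settings and in 60 of 60 runs that left out 1 library. Of the 35 members other than Ensa, 33 to 35 kept the larger amplitude in CIA mice under these settings. The cause of these shifts was not tested.

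Replicate numbers are shared between groups, and the labels do not say whether they pair the mice or which mice shared a cage. The numbers in the library names run through all CIA mice first and then all naïve mice, by time of day within each. What these numbers follow is not stated. An effect of such an order could not be told apart from treatment. Of 30 same-numbered pairs 8 had a correlation over 0.1 (median -0.044, range -0.471 to 0.446). Values this scattered cannot decide whether the mice were paired. With the replicate block 25 members were lower over 60 libraries (19.7% of all genes), 15 at ZT12 and 16 at ZT20.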

Other observations

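All genes tested were ranked by how closely they varied with each member among mice of the same group and time (60 mice, residuals of log2 CPM). For many members the nearest gene was another member, such as Top2a for Cdk1 (r = 0.948). Named here are some of the genes outside the list of 36 that came nearest to a member. Racgap1, the partner of Kif23 in the central spindle, was nearest to Ccna2 (r = 0.959), Tpx2 (r = 0.969) and Mki67 (r = 0.943). Spag5 (astrin), a spindle protein, was nearest to Foxm1 (r = 0.924), Bub1 (r = 0.947) and Espl1 (r = 0.923), and Hmmr, a spindle pole protein, to Bub1b (r = 0.958) and Kif20a (r = 0.884). Fbxo5 (Emi1), an inhibitor of the anaphase promoting complex, was nearest to Mastl (r = 0.798). The nearest gene to Ensa was Myl12b (r = 0.854), which encodes a regulatory light chain of myosin. These values are descriptions, as the genes share their libraries.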
